A study of Mus musculus with 24 samples.

Results

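Reactivated Th1 cells were set against reactivated Th2 cells in the absence of drug, using 3 of the 24 two-colour arrays of the series. The 3 arrays carried RNA of T helper cells differentiated in vitro from C57BL/6 female mice and then reactivated with DMSO, the drug vehicle, present. One array was of Th1 cells treated for 6 hr, one of Th1 cells treated for 24 hr and one of Th2 cells, whose labels give both 6 hr and 24 hr, so that its time is unclear. All 3 carried RNA of naive CD4+CD62L+CD25-CD44lo T cells from lymph nodes and spleens of the same strain as the Cy5 reference, with the T helper RNA in Cy3. Values are log2 ratios of T helper over naive RNA, and each comparison is the ratio of a Th1 array minus that of the Th2 array. The array numbers in the names of the scanner files, not the labels, place the Th1 6 hr and Th2 arrays on 1 slide and the Th1 24 hr array on another. Each condition had 1 array, so the differences carry no replicate error and no p-value, and both share the Th2 array. Of 12641 genes with a Cy3 signal well above background on both Th1 arrays or on the Th2 array, 198 (1.57%) stood 2-fold or more above the Th2 value on both Th1 arrays and 209 (1.65%) stood 2-fold or more below it on both, 407 genes (3.22%) in all. These genes are called agreeing below. The medians of all genes were -0.0011 and -0.039 (log2), and the naive reference alone differed between arrays with an SD of 0.185 (log2, median of 276 pairs).

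CD4+ T cells that see antigen take on effector fates. Th1 cells, under the transcription factor T-bet (Tbx21), make interferon gamma and serve in defence against intracellular microbes. Th2 cells, under Gata3, make interleukins 4, 5 and 13 and serve in defence against helminths and in allergy. Differentiated cells hold these cytokine genes ready and transcribe them strongly when the T cell receptor is engaged again. The cells compared here are labelled reactivated, and the agent used is not stated here. Interferon gamma also acts back on T cells and induces genes such as those for guanylate binding proteins and immunity-related GTPases.

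The identity of the cells was checked against marker genes. All 11 T cell genes were in the analysis, and Cd3e was at -1.62 and -1.06 on the Th1 arrays and -1.64 on the Th2 array. Cd4 was at -1.92 and -2.13 against -2.43, so both transcripts were below the naive level in both lines. The medians of the T cell list were 0.02 and 0.58, beside -0.0011 and -0.039 over all genes. The log2 of its summed Cy3 signal was 17.8 and 18.35 on the Th1 arrays and 17.4 on the Th2 array. Cd5 and Thy1, a signal modulator and a surface glycoprotein of T cells, agreed as higher in Th1 cells, and the other 9 T cell genes did not agree at 2-fold, beside 3.22% of all genes that agreed in either direction. Of 7 B cell markers, 4 were higher in Th2 cells and their values are given with the class II genes. Of 8 myeloid and dendritic markers in the analysis only the integrin gene Itgax agreed, higher in Th2 cells, by -2.00 at 24 hr and with a signal not well above background on the 6 hr Th1 array. Of the 9 on the array only Lyz2 was not well above background on any of the 3 arrays. The log2 of the summed Cy3 signal of these markers was 16.2 and 16.04 on the Th1 arrays and 16.08 on the Th2 array. Among CD8 and natural killer markers 3 of 6 were not well above background on any of the 3 arrays, and 0 agreed as higher in Th1 cells. That count was 2 without background subtraction or at 1.5-fold, 3 with the scanner software's own log ratio and 1 in the authors' table. Cd8a was at 0.86 and 1.68 on the Th1 arrays and not well above background on the Th2 array, where it read -0.11. Mast cell and basophil markers were not well above background on any array for 5 of 6 genes, and no red blood cell marker agreed. In bulk RNA of this kind, fewer cells of a type and less RNA per cell cannot be told apart.

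Of 22 Th1 effector and identity genes, 9 agreed as higher in Th1 cells, 0 as higher in Th2 cells and 13 in neither direction, beside 1.57% and 1.65% of all genes. Ifng, the signature cytokine, was at 8.59 and 8.33 on the 6 hr and 24 hr Th1 arrays and at 6.20 on the Th2 array. Its differences were 2.38 and 2.13 by this ratio and 7.22 and 6.98 in Cy3 alone, and the Cy5 signal of the naive reference at this probe differed by 4.84 and 4.85. Tbx21 was at 6.11 and 6.36 against 4.64. Th2 cells thus also held both transcripts well above the naive level after reactivation, and the Th1 arrays were both above the Th2 array. Il18r1, a chain of the receptor for interleukin 18, was at 0.49 and 1.29 against -3.73, and its partner Il18rap at 3.72 and 4.34 against 2.43. Stat4, which carries the interleukin 12 signal, was below the naive level in both lines, at -0.60 and -0.82 against -2.56. Lta, Ly6c1 and Nkg7 were also among those that agreed. The medians of the list were 1.07 and 0.98, beside -0.0011 and -0.039 over all genes. Cxcr3, the receptor that leads Th1 cells to inflamed tissue, did not agree at 2-fold, with differences of 0.64 and 1.07. Cxcr6 was just outside the threshold at 2.80 and 0.995, and Lilr4b (1.00 and 1.07) was just inside it.

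**Figure D1:**
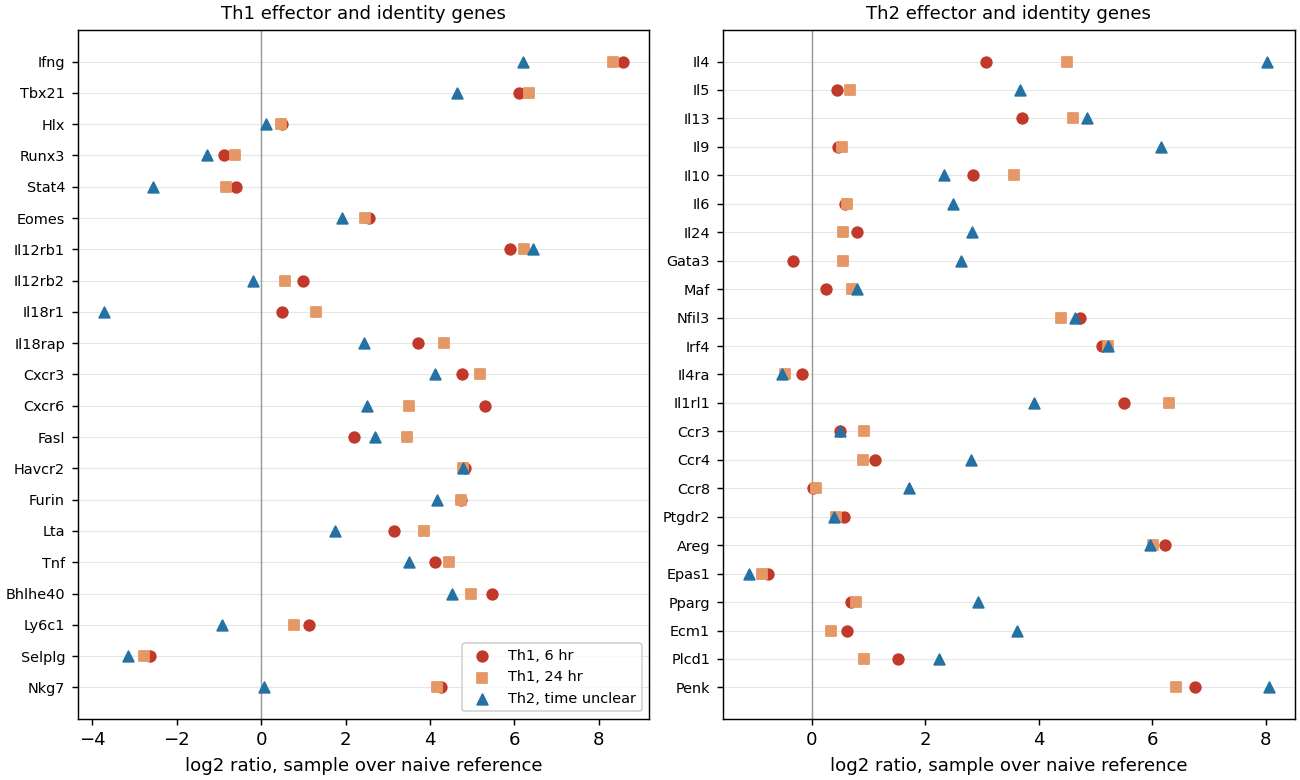
Log2 ratio over naive cells (x axis) of genes of the Th1 list (left) and of the Th2 list (right) in the analysis on each reactivated DMSO array, 1 point per array. Ifng lies at 8.59 and 8.33 on the Th1 arrays and 6.20 on the Th2 array (its Cy3 alone differed by 7.22 and 6.98), while Il1rl1 in the Th2 list lies at 5.51 and 6.29 on the Th1 arrays, above its 3.91 on the Th2 array.

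Of 23 Th2 effector and identity genes in the analysis, 11 agreed as higher in Th2 cells, 1 as higher in Th1 cells and 11 in neither direction, beside 1.65% and 1.57% of all genes. Il4 was at 3.07 and 4.496 on the Th1 arrays and at 8.03 on the Th2 array. With the scanner software's own log ratio its smaller difference was -0.7519 instead of -3.529, below 2-fold. Il5, which supports eosinophils, was at 0.46 and 0.68 against 3.66. Gata3 was at -0.33 and 0.55 against 2.64. Those that agreed as higher in Th2 cells were Il4, Il5, Il9, Il6, Il24, Gata3, Ccr4, Ccr8, Pparg, Ecm1 and Penk, with medians of the list of -1.14 and -1.33. Il13 did not agree: it was at 3.71 and 4.60 on the Th1 arrays and 4.85 on the Th2 array, so that the difference was -1.14 at 6 hr and -0.24 at 24 hr. Maf, a transcription factor of Il4, was at 0.26 and 0.72 against 0.79. Il10, an anti-inflammatory cytokine, was at 2.85 and 3.57 in Th1 cells against 2.33.

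The gene of the Th2 list that agreed as higher in Th1 cells was Il1rl1, the receptor for interleukin 33 and a widely used Th2 marker. It was at 5.51 and 6.29 on the reactivated Th1 arrays against 3.91 on the Th2 array. In the unstimulated DMSO arrays the order was the other way, 2.42 and 2.48 in Th1 cells and 3.47 in Th2 cells. Whether the Th1 minus Th2 difference depended on reactivation was tested with limma on 8 other arrays, those of Th1 and Th2 cells treated for 6 hr with 50 or 500 nM of JQ1, an inhibitor of BET bromodomain proteins, with 1 unstimulated and 1 reactivated array for each line and dose. None of these 8 arrays is among the 3 above. There the difference of Il1rl1 shifted towards Th1 cells upon reactivation by 1.72 (log2, SE 0.39, adjusted p = 0.0398). This call was lost without any of the 4 arrays with 50 nM JQ1, at 1.411 without either unstimulated array and 1.038 without either reactivated array, with adjusted p of 0.1019 to 0.1828 (limma). With the scanner software's own log ratio the test of reactivation called 0 genes of any kind (limma, 2323 at an unadjusted p below 0.05), so no call of a shift, here or below, held under that setting.

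The same 8 arrays gave a test of the Th1 against Th2 difference itself, as 4 pairs of matched dose and state with limma and the pair as a block, and they measure cells under drug. Here 143 of the 193 testable genes that agreed as higher in Th1 cells were called higher in Th1 cells at an adjusted p below 0.05, beside 7.06% of all 12900 genes tested, and 0 were called the other way. Of the 204 testable genes that agreed as higher in Th2 cells, 101 were called higher in Th2 cells, beside 5.74% of all, and 0 the other way. In the reactivated pair with 50 nM JQ1, 170 of the 198 were 2-fold or more higher in Th1 cells (2.25% of all genes) and 142 of the 209 in Th2 cells (1.66%). All 4 pairs gave the higher value to Th1 cells for 161 of the 198 (19.6% of all genes) and to Th2 cells for 133 of the 209 (19.1%). With all 20019 genes fitted and no filter on signal, the counts were 133 of 198 (background 4.38%) and 93 of 209 (background 3.67%). These backgrounds include dim genes outside the 12641 of the analysis, and every agreeing gene was within it. The split of all calls was 911 higher and 741 lower in Th1 cells, and 369 and 483 when the arrays were centred on their medians instead of by loess. By the same array numbers the Th1 and Th2 arrays of this test were on different slides, so slide and cell type cannot be told apart in it, whereas a constant slide effect cancels in the test of reactivation. The 6 hr difference without drug was, by these numbers, within a slide.

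**Figure D2:**
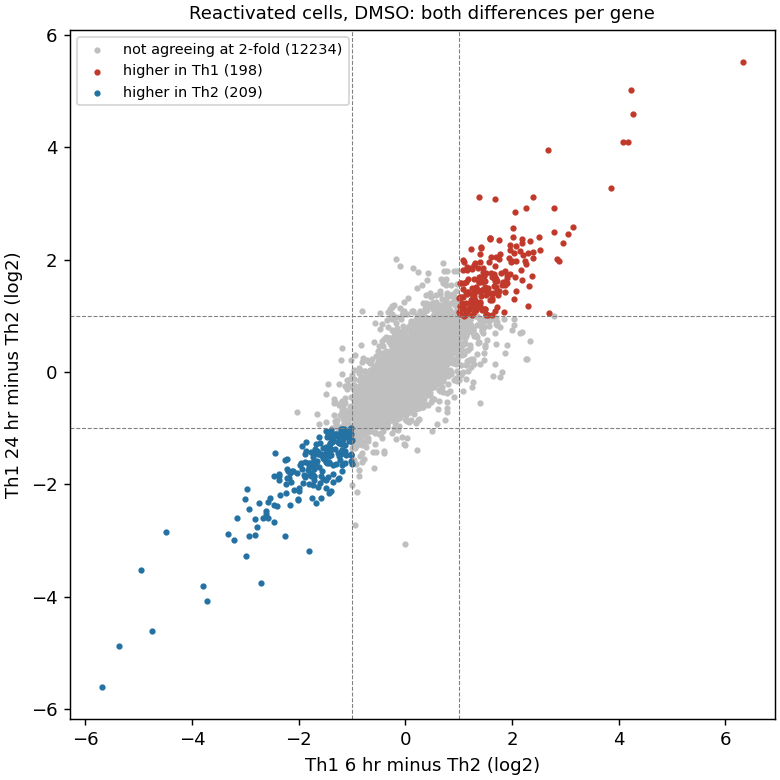
Each point is 1 of 12641 genes, with its Th1 6 hr minus Th2 difference (x axis, log2) and its Th1 24 hr minus Th2 difference (y axis, log2), and dashed lines at 2-fold. The 198 genes higher in Th1 cells and the 209 higher in Th2 cells are coloured, and both axes share the Th2 array, so the slope of the cloud is not a measure of agreement.

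By measured values, the 12 genes with the largest smaller difference in Th1 cells were Plac8, AA467197, Il18r1, Nkg7, Ccl9, Klrd1, Mpzl2, Il21, Cxcr1, Ifitm3, Ubd and Rhoc. Plac8, which encodes a small cysteine-rich protein, was at 6.23 and 5.44 on the Th1 arrays and -0.09 on the Th2 array, so only Th1 cells stood apart from naive cells. Its differences were 6.32 and 5.53, and under JQ1 it was higher in Th1 cells by 6.53 (SE 0.15, adjusted p = 1.04e-05). AA467197 was at 5.72 and 6.04 against 1.45. Mpzl2, an adhesion protein, was at 5.52 and 5.65 against 2.72, and with the scanner software's own log ratio its smaller difference was 0.5616 instead of 2.792, below 2-fold. Il21, a cytokine that acts on B cells and cytotoxic T cells, was at 7.15 and 8.44 against 4.48 and was thus strongly induced over naive cells in both lines. Ifitm3, which restricts virus entry, was at 3.88 and 3.60 against 1.0998, and Rhoc, a small GTPase, at 0.68 and 0.58 against -1.83. Plac8, AA467197, Nkg7, Ifitm3 and Rhoc were well above background on all 8 JQ1 arrays, and each was called higher in Th1 cells there, with log2 differences from 1.80 (Rhoc) to 6.53 (Plac8).

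Ccl9, a chemokine ligand, was not called under JQ1, with a difference of 1.98 (SE 0.70, adjusted p = 0.112). Without drug Ccl9 was at 5.43 and 5.44 on the reactivated Th1 arrays against 1.35 on the Th2 array, with a smaller difference of 4.087 that was 1.625 with the scanner software's own log ratio. With that ratio the smaller difference of 16 of the 24 leading genes of both directions moved by over 1.5-fold, and 22 still differed by 2-fold or more. In unstimulated cells Ccl9 was at 0.12 and 0.59 against -0.21. The difference in unstimulated cells was thus below 2-fold, and in the test of reactivation under JQ1 it shifted towards Th1 cells by 3.55 (SE 0.31, adjusted p = 0.000835). Nkg7, a membrane protein of cytotoxic granules, was at 4.26 and 4.18 against 0.08 and shifted towards Th1 cells by 1.46 (SE 0.28, adjusted p = 0.0215), a call lost in 9 alternative settings. They included leaving out either reactivated array with 50 nM JQ1 (1.017) or either unstimulated array with 500 nM (1.274), with adjusted p of 0.0573 to 0.0699 (limma).

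For 3 of the 12 genes the Th2 signal was not well above background, and the fold is a lower bound, taken against the higher of the dim signal and the lowest signal of probes well above background on that array. Klrd1, the CD94 chain of natural killer receptors, was at least 12.8-fold and at least 8.61-fold higher on the 6 hr and 24 hr Th1 arrays. Cxcr1, a chemokine receptor best known from neutrophils, was at least 7.77-fold and 4.54-fold higher. Ubd, a ubiquitin-like protein induced by interferon gamma and tumour necrosis factor, was at least 7.01-fold and 4.29-fold higher. With these bounds in place of the measured values, the places of Cxcr1 and Ubd among the 12 are not settled.

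**Figure D3:**
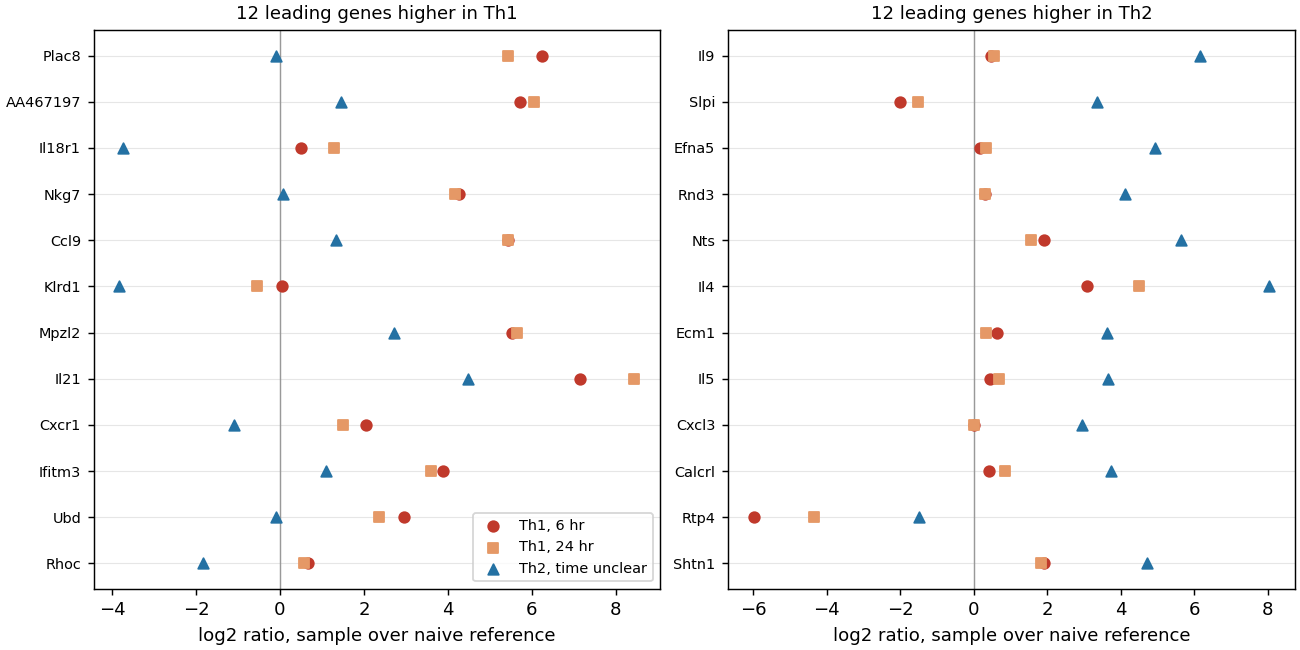
Log2 ratio over naive cells (x axis) of the 12 leading genes in each direction on the 3 reactivated DMSO arrays, 1 point per array. Plac8 lies at 6.23 and 5.44 on the Th1 arrays and at -0.09 on the Th2 array, and Il9 at 0.46 and 0.54 on the Th1 arrays and 6.15 on the Th2 array.

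The promoters of the leading Th1 genes were read for letters of the T-box site, AGGTGT and GTGTGA, which T-bet and its relatives recognise. The windows are the 250 bases before the most upstream RefSeq start of each gene in build GRCm38.p6, and 20 of the 24 leading genes had one, 10 in each direction. AGGTGT stood on either strand in 5 of 10 windows of genes higher in Th1 cells and in 2 of 10 of genes higher in Th2 cells, beside 11.8% of 32851 RefSeq windows. GTGTGA stood in 4 and in 1, beside 12.3%, and the letters overlap where AGGTGTGA occurs. The GATA letters AGATAA stood in 0 and 1 windows (9.99% of all), TGATAA in 1 and 1 (7.94%), and the STAT letters TTCNNNGAA in 1 and 0 (7.02%). The windows of Plac8 (chr5:100572206-100572455, minus strand), Nkg7 (chr7:43436888-43437137, plus strand) and Il21 (chr3:37232637-37232886, minus strand) are shown because they hold these letters, in capitals on either strand, the STAT letters of Nkg7 included. A match is a description of the sequence.

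Plac8: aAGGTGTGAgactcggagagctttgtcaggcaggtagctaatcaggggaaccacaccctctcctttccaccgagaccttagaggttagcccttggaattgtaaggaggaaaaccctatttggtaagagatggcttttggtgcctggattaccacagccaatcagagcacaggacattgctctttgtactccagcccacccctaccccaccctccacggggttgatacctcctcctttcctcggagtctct

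Nkg7: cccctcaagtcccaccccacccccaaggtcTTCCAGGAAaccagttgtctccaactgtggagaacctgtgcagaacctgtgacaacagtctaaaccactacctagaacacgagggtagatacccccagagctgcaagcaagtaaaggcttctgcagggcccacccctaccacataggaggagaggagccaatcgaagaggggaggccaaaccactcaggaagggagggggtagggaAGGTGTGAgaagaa

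Il21: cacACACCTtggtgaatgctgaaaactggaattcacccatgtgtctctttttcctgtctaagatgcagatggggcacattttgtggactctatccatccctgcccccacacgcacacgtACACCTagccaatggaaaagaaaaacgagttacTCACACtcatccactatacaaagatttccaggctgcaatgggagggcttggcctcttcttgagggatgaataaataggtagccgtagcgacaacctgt

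Of 12 cytotoxic granule genes in the analysis 6 agreed as higher in Th1 cells and 0 as higher in Th2 cells, with medians of 1.32 and 1.01, beside 1.57% and 1.65% of all genes. Under JQ1 8 of 12 were called higher in Th1 cells and 1 in Th2 cells, beside 7.06% and 5.74% of all genes. The log2 of the summed Cy3 signal of the CD8 and natural killer markers was 9.22 and 9.40 on the Th1 arrays and 8.78 on the Th2 array, with 3 of 6 markers not well above background on any of them. The 3 of these markers in the analysis had median differences of 0.97 and 0.88. Their part in the cytotoxic genes was not tested. Gzma, a granule protease, was at 6.05 and 5.69 against 3.67, and Ctsw, a protease of cytotoxic lymphocytes, at -0.69 and -0.01 against -2.94. Gzmc was at 1.98 and 2.38 against -0.03, and Gzme, which was not well above background in Th2 cells, was at least 2.11-fold and 2.09-fold higher in Th1 cells. Prf1, the pore-forming protein, was at 0.37 and 0.64 against -1.38, while its difference under JQ1 was 0.03 (adjusted p = 0.938). Of 6 killer cell receptor genes Klrc1 and Klrd1 agreed as higher in Th1 cells. Klrc1 was not well above background on the Th2 array and was at least 3.48-fold and 2.34-fold higher on the Th1 arrays.

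For some of the most abundant transcripts the ratio and the Cy3 signal alone gave differences of unlike size, and the Cy5 signal of the naive reference moved with the Cy3 signal of the same probe. For Ifng the differences of the ratio were 2.38 and 2.13, those of Cy3 alone 7.22 and 6.98, and those of Cy5 alone 4.84 and 4.85. Ccl3, a chemokine that draws monocytes and T cells, showed 0.79 and 0.69 in the ratio and 6.00 and 6.49 in Cy3, with 5.21 and 5.79 in Cy5. Xcl1, a chemokine for cross-presenting dendritic cells, showed 1.33 and 1.12 in the ratio and 4.15 and 5.46 in Cy3. Gzmb did not agree at 2-fold by the ratio (0.48 and 0.46), while its Cy3 differences were 2.79 and 3.60. In all, 68 genes (0.538%) had a Cy5 signal at least 2-fold different between either Th1 array and the Th2 array, and 10 of the 198 and 7 of the 209 agreeing genes were among them. Counted by Cy3 alone, 213 genes agreed as higher in Th1 cells and 229 as higher in Th2 cells. The cause of the shared movement was not tested.

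**Figure D4:**
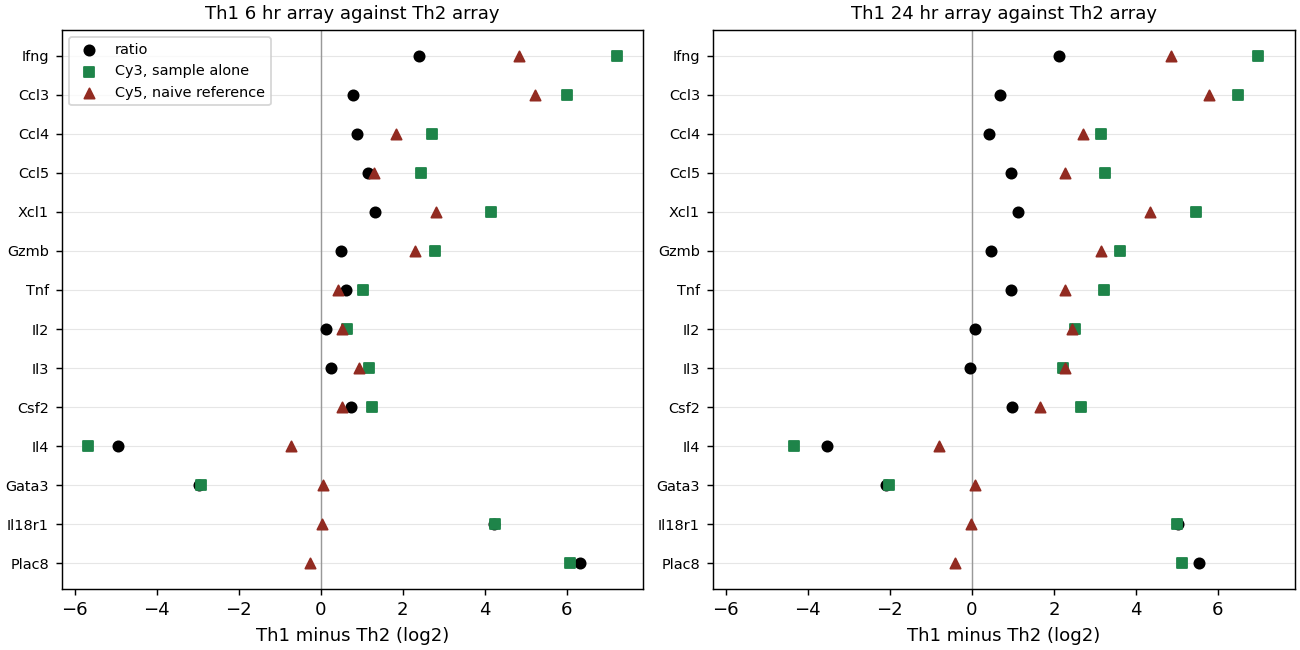
Th1 minus Th2 difference (x axis, log2) of the ratio, of Cy3 (T helper RNA) alone and of Cy5 (naive reference) alone, for the 6 hr (left) and 24 hr (right) Th1 array, 1 point per quantity. For Ifng the ratio lies at 2.38 and 2.13 while Cy3 lies at 7.22 and 6.98, whereas for Gata3, Il18r1 and Plac8 the ratio and Cy3 lie close together.

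Of 17 activation cytokines and TNF family ligands only Tnfsf9, the ligand of the costimulatory receptor 4-1BB, agreed, at 4.95 and 5.65 in Th1 cells against 3.78, which as 1 of 17 is a count too small to read against the 1.57% and 1.65% of all genes. The count was 0 with median or spike-in centring and 3 with Cy3 alone. Il2, the T cell growth factor, was at 7.50 and 7.43 against 7.36, and Il3 at 8.68 and 8.36 against 8.42. Csf2 was at 7.51 and 7.75 against 6.77. In Cy3 alone, Il2, Il3 and Csf2 were higher on the 6 hr Th1 array than on the Th2 array by 0.64, 1.19 and 1.25, and their Cy5 differed by 0.51, 0.93 and 0.51. On the 24 hr Th1 array the Cy3 differences were 2.51, 2.22 and 2.65 and those of Cy5 2.44, 2.28 and 1.67. The medians of the list in Cy3 alone were -0.08 and 0.50. Of 15 genes of other T helper lineages, Rora and Il21 agreed as higher in Th1 cells, Il17f and Ahr as higher in Th2 cells, and 11 in neither direction, beside the same shares of all genes. Il17f, a cytokine of Th17 cells, was at 2.79 and 3.41 against 4.65.

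Beside 1.57% of all genes higher in Th1 cells and 1.65% higher in Th2 cells, chemokine and cytokine receptors went both ways. Of 12 chemokine ligands, Ccl9 and Xcl1 agreed as higher in Th1 cells and Cxcl2 and Cxcl3, which attract neutrophils, as higher in Th2 cells. The count of ligands higher in Th1 cells was 5 with Cy3 alone or in the authors' table and 1 with spike-in centring. That of ligands higher in Th2 cells was 2 in each of these, 1 with median centring and 4 with the scanner software's own log ratio. Among 18 chemokine receptors and homing molecules, 2 agreed as higher in Th1 cells and 2 as higher in Th2 cells. Those higher in Th1 cells included Ccr7 (-2.12 and -3.76 against -4.81), which guides cells to lymph nodes. Ccr4 (1.11 and 0.90 against 2.82) and Ccr8 (0.03 and 0.07 against 1.71), receptors typical of Th2 cells, agreed as higher in Th2 cells. Of 24 cytokine receptor chains, 6 agreed as higher in Th1 cells (Il18r1, Il18rap, Il1rl1, Il1r2, Il21r and Ifngr1) and 1, Ifngr2, as higher in Th2 cells. The chains of the interferon gamma receptor thus went in opposite directions. Ifngr1, the ligand-binding chain, was at -0.63 and -1.06 on the Th1 arrays against -2.49, and Ifngr2, the signalling chain, at -3.35 and -4.06 against -1.91. Under JQ1, Ifngr1 was higher in Th1 cells by 1.91 (adjusted p = 0.000806) and Ifngr2 was higher in Th2 cells, at -1.80 (adjusted p = 0.00219).

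Among 38 transcription factors of T helper fate, 4 agreed as higher in Th1 cells (Tbx21, Stat4, Rora and Twist1) and 3 as higher in Th2 cells (Gata3, Ahr and Pparg). Rora, an orphan nuclear receptor, was at 1.78 and 2.07 against -0.18. Twist1, a repressor that restrains inflammatory Th1 cells, was at 2.01 and 3.76 against 0.63, its largest value at 24 hr. Ahr, the aryl hydrocarbon receptor, was at 0.51 and 1.51 against 2.96, and Pparg, a nuclear receptor of lipid metabolism, at 0.69 and 0.78 against 2.92. Under JQ1, 9 of 37 of these factors were called higher in Th1 cells, beside 7.06% of all genes, and 3 higher in Th2 cells, a share near the 5.74% of all genes. Of 19 costimulatory and inhibitory receptors, Cd5 and Cd6 agreed as higher in Th1 cells and Cd200r1 as higher in Th2 cells. Of 22 early response genes, Ier3, Dusp1 and Tnfaip3 agreed as higher in Th1 cells and 0 as higher in Th2 cells, and the shifts of this list are given after the interferon response genes. Of 12 cytokine feedback genes and of 19 proliferation genes 0 agreed in either direction, which in lists of this size is near the 1.57% and 1.65% of all genes.

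Among genes nearest to T-bet super-enhancers, clusters of enhancers with strong T-bet binding that the study mapped in mouse Th1 cells by chromatin immunoprecipitation, 32 of 358 (8.94%) agreed as higher in Th1 cells and 4 (1.12%) as higher in Th2 cells, beside 1.57% and 1.65% of all genes. Those higher in Th1 cells included Ifng, Il18r1, Ccr7, Il1rl1, Il21r and Ifitm3, and the 4 higher in Th2 cells were Gata3, Ifngr2, Ifi47 and Fgd2. The medians of the list were 0.15 and 0.19. With the arrays centred on the spike-in RNAs the counts were 17 and 11. Under JQ1, 83 of 360 were called higher in Th1 cells, beside 7.06% of all genes, and 21 higher in Th2 cells, a share near the 5.74% of all genes.

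The 12 leading genes higher in Th2 cells were Il9, Slpi, Efna5, Rnd3, Nts, Il4, Ecm1, Il5, Cxcl3, Calcrl, Rtp4 and Shtn1. Il9, a mast cell growth factor, was at 0.46 and 0.54 on the Th1 arrays and 6.15 on the Th2 array, a difference of -5.69 and -5.61. Slpi, a secreted inhibitor of leukocyte proteases, was at -2.02 and -1.52 against 3.35. Efna5, an ephrin ligand, was at 0.18 and 0.32 against 4.94, and Nts, the neuropeptide neurotensin, at 1.92 and 1.56 against 5.63. Ecm1, an extracellular matrix protein, was at 0.62 and 0.34 against 3.61. Calcrl, a receptor for calcitonin gene-related peptide and adrenomedullin, was at 0.42 and 0.86 against 3.74, and Shtn1 at 1.91 and 1.83 against 4.73.

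Bounds apply to Rnd3 and Cxcl3, whose places in this order rest on measured values. Rnd3, an atypical small GTPase, was at 0.32 and 0.31 against 4.11, was not well above background on the 24 hr Th1 array and was at least 11.8-fold lower there. Cxcl3 was not well above background on either Th1 array and was at least 5.60-fold and 6.18-fold lower there than on the Th2 array. Rtp4, a gene induced by interferons, was at -5.98 and -4.35 in Th1 cells against -1.49 and so was below the naive level on all 3 arrays.

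Under JQ1, 6 of the 12 genes were called higher in Th2 cells, which were Slpi, Efna5, Nts, Il4, Ecm1 and Shtn1, and of these Slpi, Ecm1 and Shtn1 were well above background on all 8 arrays. Slpi differed by -5.01 (SE 0.11, adjusted p = 1.04e-05) and Il4 by -3.88 (SE 0.65, adjusted p = 0.0135). The other 6, Il9, Rnd3, Il5, Cxcl3, Calcrl and Rtp4, had differences of -0.97 to -2.52 with adjusted p of 0.0998 to 0.141. For 5 of those 6 the test of reactivation called a shift. In unstimulated DMSO arrays Il9, Rnd3, Il5, Cxcl3 and Calcrl differed by at most 0.47 between the lines, as for Il5, at -0.07 and 0.04. Whether their signals were well above background on those arrays is not given here. In the test of reactivation under JQ1 these genes shifted towards Th2 cells by -4.85 (Il9), -3.51 (Rnd3), -2.78 (Il5), -1.70 (Cxcl3) and -3.11 (Calcrl), with adjusted p of 0.000136 to 0.0282. The call of Cxcl3 was lost without any of the 4 unstimulated arrays, at -1.639 to -1.758, and that of Nts for cell type without the reactivated pair with 50 nM (-2.617, adjusted p = 0.0541, limma). Efna5, Nts, Il4 and Shtn1, which already differed in unstimulated cells, shifted further in the same direction, by -1.73 to -3.16. With the scanner software's own log ratio this test called 0 genes (limma, 2323 at an unadjusted p below 0.05), so that the call of every shift given here was lost, and the shifts of Il4 (2.226) and Nts (0.4776) had the opposite sign. Slpi and Ecm1 were higher in Th2 cells in both states, and their shifts were 0.09 (adjusted p = 0.847) and -0.13 (adjusted p = 0.812).

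Over all agreeing genes, 65 of the 209 higher in Th2 cells also favoured Th2 cells by 2-fold or more in both unstimulated DMSO differences, beside 1.51% of all genes, and 10 favoured Th1 cells by as much. Of the 198 higher in Th1 cells, 82 favoured Th1 cells by 2-fold or more in both unstimulated differences, beside 2.08%, and 0 were the other way. By the unstimulated 6 hr Th1 array alone these counts were 75 of 209 (beside 2.9%) and 101 of 198 (beside 3.92%). In the test of reactivation under JQ1, 65 of 204 genes higher in Th2 cells shifted towards Th2 cells upon reactivation and 5 towards Th1 cells, beside 3.34% and 2.72% of all genes. Of 193 genes higher in Th1 cells 46 shifted towards Th1 cells and 13 towards Th2 cells. All shifts of this test numbered 351 towards Th1 and 431 towards Th2 cells, which became 77 and 450 with median centring and 30 and 1366 with spike-in centring, where the median gene moved by -0.43.

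The promoter windows of 2 leading cytokine genes of Th2 cells, Il9 (chr13:56482258-56482507, minus strand) and Il4 (chr11:53618666-53618915, minus strand), are shown because their differences were the largest among interleukin genes higher in Th2 cells. Neither held the T-box or GATA letters, whereas the window of Il5, the other leading interleukin gene, held AGGTGT 1 time. Il4 held the core letters of the interferon-stimulated response element (GAAA, any 2 bases, GAAA), in capitals on the opposite strand.

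Il9: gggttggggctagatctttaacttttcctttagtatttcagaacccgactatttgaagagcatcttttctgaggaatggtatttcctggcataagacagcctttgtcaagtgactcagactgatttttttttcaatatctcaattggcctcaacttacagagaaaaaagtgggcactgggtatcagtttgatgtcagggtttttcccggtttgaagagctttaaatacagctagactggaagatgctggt

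Il4: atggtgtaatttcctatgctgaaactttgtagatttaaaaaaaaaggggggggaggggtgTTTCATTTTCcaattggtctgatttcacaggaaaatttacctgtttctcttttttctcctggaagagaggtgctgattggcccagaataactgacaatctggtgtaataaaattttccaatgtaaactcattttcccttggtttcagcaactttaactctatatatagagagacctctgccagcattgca

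Of 7 B cell markers 4 agreed as higher in Th2 cells, 0 as higher in Th1 cells and 3 in neither direction, beside 1.65% and 1.57% of all genes. Ms4a1 (CD20) was at 1.61 and 1.85 on the Th1 arrays and 3.84 on the Th2 array, and Cd79b, a chain of the B cell receptor, at -0.20 and -0.32 against 1.79. Blnk, an adaptor of B cell receptor signalling, was at 2.81 and 2.76 against 4.01. Cd79a was not well above background on either Th1 array and Pax5 not on the 24 hr Th1 array. The log2 of the summed Cy3 signal of the 7 markers was 11.3 and 11.1 on the Th1 arrays and 12.5 on the Th2 array. Under JQ1, 5 of 6 tested markers were called higher in Th2 cells, beside 5.74% of all genes, and 3 with either of 2 pairs left out. In unstimulated DMSO cells Ms4a1 differed by -2.33 and -2.61 and Cd79b by -1.83 and -2.27.

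Other B-lineage and class II genes among the agreeing genes were picked after their values were seen. Jchain, which joins antibody subunits, was at 0.60 and 0.75 against 3.22, and Mzb1, a chaperone of antibody-secreting cells, at 2.59 and 2.03 against 4.09. Cd74, the invariant chain, was at 2.39 and 2.38 against 3.64, and H2-Aa, a class II chain, at 1.05 and 1.04 against 2.76. H2-Eb1 was at 0.96 and 0.93 against 2.14. Each of these 5 genes was called higher in Th2 cells under JQ1, with differences of -1.45 (H2-Eb1) to -2.64 (Jchain). The part of B cells in any other difference of the Th2 array was not tested.

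Of 37 interferon response genes, 15 agreed as higher in Th2 cells, beside 1.65% of all genes, and only Gbp3 and Ly6a agreed as higher in Th1 cells, beside 1.57%. The medians of the list were -0.96 and -0.85. Irf7, a master factor of the type I interferon response, was at -2.60 and -2.04 on the Th1 arrays and 0.56 on the Th2 array. Ifit1, which binds viral RNA, was at -3.27 and -2.78 against -0.34, and Isg15, a ubiquitin-like modifier, at 0.14 and -1.24 against 1.94. Usp18, the protease that removes Isg15, was at -3.26 and -2.95 against -0.72. Thus several of these genes were far below the naive level in Th1 cells and nearer to it in Th2 cells. Irgm1, Irgm2, Igtp and Ifi47, immunity-related GTPases, agreed as well, with Irgm1 at -0.53 and 0.16 against 1.73. Outside the list, and chosen after their values were seen, Xaf1 (-2.75 and -2.33), Dhx58 (-2.58 and -2.32) and Oasl2 (-3.01 and -2.26) differed in the same direction. With spike-in centring 20 genes of the list were higher in Th2 cells and 1 in Th1 cells.

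In both unstimulated DMSO differences 16 of the 37 genes favoured Th1 cells by 2-fold or more and 1 favoured Th2 cells, beside 2.08% and 1.51% of all genes. Igtp was at 1.30 and 1.82 in unstimulated Th1 cells and -1.02 in unstimulated Th2 cells, and at -1.19 and -0.96 against 0.15 after reactivation. Gbp2, a guanylate binding protein, differed by 3.62 and 3.23 in unstimulated cells and by 0.10 and 0.11 in reactivated cells. Irf1, the factor that passes on the interferon gamma signal, differed by 2.05 and 2.04 before and by -0.96 and -1.56 after reactivation. Ifng itself remained higher in Th1 cells in both states.

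Dependence of the difference on reactivation was tested on the JQ1 arrays, which the DMSO values did not use. There 18 of 37 genes shifted towards Th2 cells at an adjusted p below 0.05 (limma), beside 3.34% of all genes, and 0 shifted towards Th1 cells, beside 2.72%. Igtp shifted by -4.00 (SE 0.26, adjusted p = 0.000224), Gbp2 by -3.69 (SE 0.29, adjusted p = 0.000486) and Ifi47 by -3.31 (SE 0.23, adjusted p = 0.000271). Irf1 shifted by -2.73 (SE 0.39, adjusted p = 0.00803), Isg15 by -2.22 (SE 0.21, adjusted p = 0.00111) and Usp18 by -2.15 (SE 0.49, adjusted p = 0.0396), the last lost without any of the 4 unstimulated arrays, at -2.072 to -2.226. For Irf7 and Ifit1 the values were -1.095 (adjusted p = 0.108) and -1.13 (adjusted p = 0.0995). Averaged over states, 5 of the 37 genes were called higher in Th1 cells and 1 in Th2 cells under JQ1, beside 7.06% and 5.74% of all genes. The count of 18 was 14 to 23 with 1 array left out, and became 31 with spike-in centring and 0 with the scanner software's own log ratio.

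Early response genes, which are induced within hours of receptor signals, also shifted. In the test of reactivation 15 of 23 shifted towards Th2 cells and 0 towards Th1 cells (limma), beside 3.34% and 2.72% of all genes. The count was 12 to 16 with 1 array left out and 0 with the scanner software's own log ratio. In both unstimulated DMSO differences 7 of these genes favoured Th1 cells by 2-fold or more and 0 favoured Th2 cells, beside 2.08% and 1.51% of all genes. Egr1, Nr4a1 and Fos, immediate early transcription factors, were picked after their values were seen. Nr4a1 was at 2.26 and -0.22 in unstimulated Th1 cells against -1.97 in unstimulated Th2 cells, and at 3.83 and 4.14 against 3.69 after reactivation. Egr1 was at 0.44 and -1.54 against -2.53 before and at 1.89 and 1.67 against 2.51 after reactivation. In unstimulated cells both were thus higher on both Th1 arrays, and the 6 hr Th1 array was the highest. Under JQ1 the shifts were -3.98 for Nr4a1 (SE 0.21, adjusted p = 0.000136), -3.92 for Egr1 (SE 0.28, adjusted p = 0.000291) and -2.92 for Fos (SE 0.22, adjusted p = 0.000473).

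**Figure D5:**
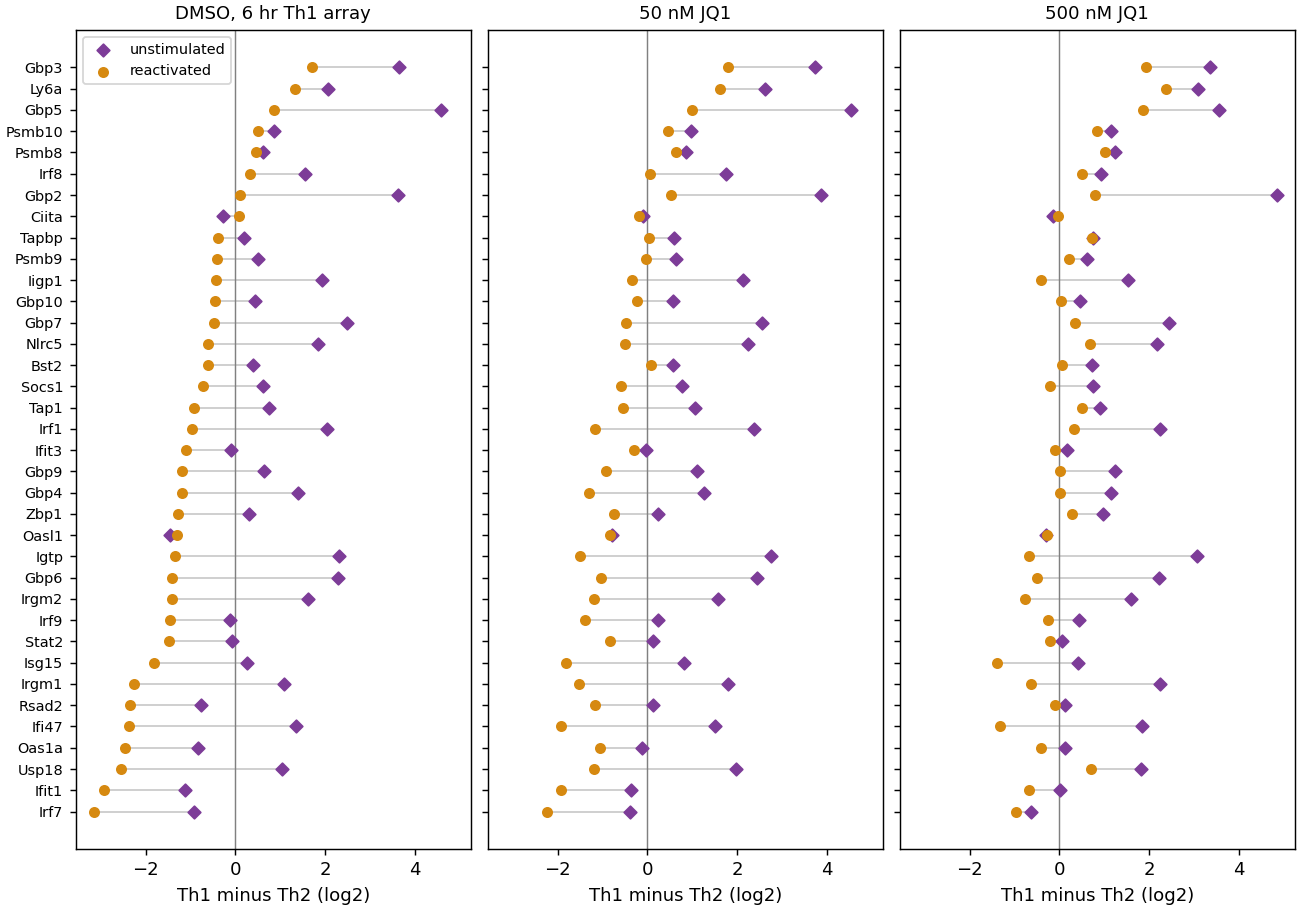
Th1 minus Th2 difference (x axis, log2) of interferon response genes in unstimulated and in reactivated cells, with DMSO (6 hr Th1 array), 50 nM JQ1 and 500 nM JQ1, each point the difference of 1 pair of arrays. The reactivated point lies to the left of the unstimulated point for nearly every gene, as for Igtp, and for 36 of the 37 genes of the list the shift fitted over the 8 JQ1 arrays was below 0.

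The core letters of the interferon-stimulated response element were searched after these values were seen. They stood on either strand in 8 of 11 windows of list genes that agreed as higher in Th2 cells, in 7 of 15 windows of the other list genes, and in 2.98% of all RefSeq windows. The windows of Ifit1 (chr19:34640639-34640888, plus strand) and Isg15 (chr4:156200819-156201068, minus strand) are shown because they hold these letters 2 and 3 times, counting overlaps, in capitals. The window of Isg15 also holds the T-box letters GTGTGA on the opposite strand, in capitals near its end.

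Ifit1: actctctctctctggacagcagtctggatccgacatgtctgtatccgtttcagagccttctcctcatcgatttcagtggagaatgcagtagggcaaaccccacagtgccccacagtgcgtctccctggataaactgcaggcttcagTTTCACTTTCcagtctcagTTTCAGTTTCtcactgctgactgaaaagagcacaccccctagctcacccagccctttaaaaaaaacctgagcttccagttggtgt

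Isg15: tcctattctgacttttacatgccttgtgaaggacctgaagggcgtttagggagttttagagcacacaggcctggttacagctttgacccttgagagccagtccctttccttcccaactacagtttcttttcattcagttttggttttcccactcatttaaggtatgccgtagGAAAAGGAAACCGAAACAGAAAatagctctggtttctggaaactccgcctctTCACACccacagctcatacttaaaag

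The sizes of the agreeing differences had a median of 1.39 among genes higher in Th1 cells and 1.45 among genes higher in Th2 cells, taking the smaller of both differences. At 4-fold 30 and 37 genes agreed, and at 16-fold 5 and 3. All 3 signals were well above background for 185 of the 198 and 179 of the 209 genes. Where a gene had several probes above background, all of them pointed one way for 61 of 61 genes higher in Th1 cells and 41 of 43 higher in Th2 cells. Centring on the spike-in RNAs, which moves the median of all genes to -0.21 and -0.48, changed the counts to 92 higher in Th1 and 325 higher in Th2 cells (22.1% of agreeing genes higher in Th1 instead of 48.6%). Of the 198 and the 209 genes, 92 and 199 still agreed there, and none agreed at 2-fold the other way. Members of families with similar sequences, such as Klrc1 and Klrc3 or Serpinb6a and Serpinb6b, were among the agreeing genes, and cross-hybridisation between them was not tested. On the 3 arrays 48.9% to 50.4% of probes were well above background in Cy3.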

How the data were processed

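RNA of T helper cells (Cy3) and of naive CD4+ T cells (Cy5) was hybridised to 24 Agilent mouse arrays, 14 of Th1 and 10 of Th2 cells, with 1 array per condition, no dye swap and spike-in RNAs in both channels. The deposited scanner files hold the median intensity of each spot and of its local background, and per the file headers came from Feature Extraction 10.7.1.1 with a grid of build mm9. Per the file headers that software also made the deposited log10 ratios of Cy5 over Cy3, after background subtraction and dye normalization, used as an alternative. A table of log2 ratios from the authors covers 34710 of 55681 probes, and its normalization is not given in the sources used here. Its columns followed the values below (r between 0.981 and 0.996, slope between 0.967 and 1.035), which gives its scale and direction, and the medians of the 3 columns used were 0.012, 0.00994 and 0.0116, so that centring near 0 is seen but not how it was done.

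Median spot intensities were background corrected with normexp (offset 50), control and outlier-flagged spots were left out, and each array was loess normalized with limma 3.58.1 in R 4.3.3. Of the probes, 26448 carried 1 of 20031 symbols, 26425 of them by RefSeq accession (GRCm38.p6, for names), and 29233 had none and were not analysed here. A gene was represented by its brightest probe. Agreeing genes had both differences of the same sign and of at least 2-fold. Named genes were the 12 in each direction with the largest smaller difference, and the lineage lists. Tests were limma's lmFit and eBayes with Benjamini-Hochberg adjustment, called at 0.05, on 8 JQ1 arrays, for genes well above background on at least 2 of them, with 3 residual degrees of freedom for cell type and 2 for its interaction with reactivation. The fits were tested on simulated data. The number of arrays limits the precision. The SD of repeated spots was 0.092 to 0.099 (log2) on the 3 reactivated DMSO arrays. Alternatives changed the centring, background, probe and signal filters, thresholds, arrays and block. Figures used Python 3.11.15 with matplotlib 3.10.9. The comparison and the gene lists were chosen with earlier results of these data known, and the super-enhancer list came from the study's binding data. Nothing says that arrays of different conditions came from separate cultures, so the p-values measure only the spread between arrays. Some genes are not reported here by name, and they remain in the counts.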

Additional observations from a re-analysis of the deposited data

Results flagged for a closer look

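For 11 of the 24 leading genes the Th1 minus Th2 difference itself differed between reactivated and unstimulated cells in the JQ1 arrays (limma interaction, adjusted p below 0.05), 2 towards Th1 and 9 towards Th2 cells, beside 2.72% and 3.34% of all genes. With the scanner software's own log ratio this test called 0 genes (limma, 2323 at an unadjusted p below 0.05). Towards Th1 cells the difference shifted by 3.555 (log2) for the chemokine gene Ccl9 and by 1.455 for Nkg7. Towards Th2 cells it shifted by -4.85 for Il9, -3.51 for Rnd3, -3.157 for Il4, -3.107 for Calcrl, -2.785 for Il5, -2.622 for Nts, -2.287 for Efna5, -1.733 for Shtn1 and -1.698 for Cxcl3. These include 3 cytokine genes (Il4, Il5 and Il9) and 2 chemokine genes (Ccl9 and Cxcl3). Outside the leading genes, the test gave 1.716 for Il1rl1, and towards Th2 cells -4.001 for Igtp, -3.695 for Gbp2, -3.308 for Ifi47, -2.731 for Irf1, -2.225 for Isg15 and -2.149 for Usp18. The calls of Nkg7, Cxcl3, Il1rl1 and Usp18 were lost with some single arrays left out, as given above.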

How the results depend on the processing

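Of the 198 genes higher in Th1 and 209 higher in Th2 cells, none agreed at 2-fold the other way in any alternative. Both counts became 92 and 325 with spike-in centring, 407 and 505 with the scanner software's log ratio, 543 and 498 at 1.5-fold and 30 and 37 at 4-fold. By the 6 hr Th1 array alone 341 genes were higher in Th1 cells, and by the 24 hr array alone 319. In the JQ1 test of cell type, leaving out 1 pair gave 389 to 545 genes higher in Th1 and 230 to 454 higher in Th2 cells. Adding the unstimulated DMSO pair gave 1523 and 1464, adding the flavopiridol pairs 2027 and 2100, median centring 369 and 483, spike-in centring 339 and 219, and no context block 30 and 23. In the test of reactivation, leaving out 1 array gave 64 to 235 shifts towards Th1 and 145 to 383 towards Th2 cells. Adding the DMSO pairs gave 1303 and 1247, median centring 77 towards Th1 cells, spike-in centring 30 and 1366, and no background subtraction 199 towards Th1 cells. With the scanner software's log ratio it gave 0 and 0 calls (limma, 2323 genes at an unadjusted p below 0.05), and there the shifts of Il4 (2.226) and Nts (0.4776) turned sign. The cause of these changes was not tested. Over all alternatives, the smaller differences of the leading genes moved by more than 0.185 (log2), the SD of the naive reference between arrays, 112 times and by less 103 times. Values of single genes in the test of cell type kept their side of the threshold 475 times, lost the call 17 times and gained it 13 times, and called shifts of the test of reactivation kept it 266 times, lost it 44 times with the same sign and 2 times with the opposite sign. The number of arrays and dim probes limit what could be called.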
